A study of Mus musculus with 18 samples.

Results

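The stress keratins measured here were the 4 genes Krt6a, Krt6b, Krt16 and Krt17, chosen by name among the 52636 genes counted, and each was found as 1 row of the table. RNA-Seq counts came from mouse epidermal cells that were gated on EpCAM and against CD45, CD140a and CD31, while the labels name whole skin as the source and keratinocytes as the cell type. Mice carried floxed Zfp36 alleles (fl/fl) or had lost Zfp36 in epidermal cells (Zfp36 ΔK14 in the labels, ΔEP below) through a Cre driven by the basal keratin K14 promoter, which is also active in hair follicles. The Zfp36 product, TTP, attaches to AU-rich elements in 3′ untranslated regions of mRNAs and speeds their decay. The 3 stages were mock skin, treated skin (nontumoral, after the carcinogen DMBA and the tumor promoter TPA) and tumors (papillomas raised by both agents).

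Each of the 6 groups held 3 columns of counts. Mock ΔEP replicates 2 and 3 held the same value in all 52636 genes and were counted as 1 library, which left 17 libraries and n = 2 for mock ΔEP. The labels give neither the age of the mice nor whether the replicates of a group came from separate mice, so p-values measure only the spread between these samples, which may be technical. Total counts ran from 2808550 to 9617985, and the 4 keratins took 0.0413% to 0.753% of them. Zfp36 stood at 495 ± 301 CPM (counts scaled to a common library size with TMM factors, mean ± SD, n = 3) in mock fl/fl and 27.9 ± 14.97 CPM (n = 2) in mock ΔEP, and its highest ΔEP level in any stage, 38.4 CPM, lay below its lowest fl/fl level, 152 CPM. The lowest total belonged to fl/fl tumor replicate 1, with 19219 genes with a count against 23339 to 28145 elsewhere, and 14.98% of its counts in 5 ribosomal RNA genes against 4.50% to 13.6% elsewhere.

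Keratins are the intermediate filament proteins of epithelia and assemble as pairs of a type II and a type I chain. Basal cells of resting epidermis make KRT5 with KRT14, and suprabasal cells make KRT1 with KRT10. After wounding, in hyperproliferative skin and in squamous tumors, keratinocytes make the type II chains KRT6A and KRT6B with the type I chains KRT16 and KRT17, which are therefore used as markers of activated epidermis. In resting skin these genes are active mainly in the hair follicle, the nail and the sole.

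The pair of Krt6 genes lay side by side on chromosome 15 and the type I genes on chromosome 11 (positions on GRCm38). Krt6a (ENSMUSG00000058354) covered chr15:101689910-101694307, and Krt6b (ENSMUSG00000023041) covered chr15:101676023-101680287, 9622 bases away. Krt16 (ENSMUSG00000053797) covered chr11:100246091-100248902, and Krt17 (ENSMUSG00000035557) covered chr11:100256217-100261029, 7314 bases away. All 4 genes were annotated on the minus strand, and the basal type II gene Krt5 was the neighbor of Krt6a on the other side, 12762 bases away.

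The coding sequences of Krt6a and Krt6b were identical in 1625 of 1662 aligned bases (97.8%), against 80.5% for Krt6a with Krt5. Krt16 and Krt17 were less alike, with 75.8% identity, and Krt16 was closer to the basal type I gene Krt14 (86.2%). The stretch of 30 coding bases with the most differences between the Krt6 genes is shown. Within the coding sequence, reads can tell these genes apart only where bases differ. Untranslated regions were not aligned. Capitals mark the 7 bases that differ, and both stretches span coding positions 839 to 868.
Krt6a: tAAcagaTgaTatcaacttcTtgagagCtC
Krt6b: tTGcagaCgaGatcaacttcCtgagagTtA
The corresponding stretches of the type I pair, at coding positions 1376 to 1405 of Krt16 and 1268 to 1297 of Krt17, differed at 20 of 30 bases.
Krt16: TCAGccAgAGCcaAAGTcaGAGTTccaGGG
Krt17: CATCccGgGAAcaGGTGcaCCAGAccaCCC

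These differences bear on how surely a read was assigned. Of the 50-base windows of the exons, 49.5% in Krt6a and 50.1% in Krt6b also occurred in transcripts of another gene, foremost of each other and of Gm5478. The share was 37.6% in Krt16, with Gm11597 and Krt14, and 3.995% in Krt17. At 100 bases the shares were 34.0%, 30.6%, 24.3% and 0% for Krt6a, Krt6b, Krt16 and Krt17. The read length and the treatment of reads with several matches are not stated, so counts of Krt6a, Krt6b and Krt16 are less certain than those of Krt17. Krt6a also overlapped an antisense gene, Gm49428, and strand use is not stated.

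AU-rich elements were searched as the pentamer ATTTA, the heptamer TATTTAT and the nonamer TTATTTATT on the sense strand of the longest annotated 3′ untranslated region, where each longer motif holds the shorter ones. ATTTA was found once in Krt6b, in a region of 506 bases, and was not found in Krt6a (557 bases), Krt16 (143 bases) or Krt17 (185 bases). None of the 4 regions held the heptamer or the nonamer. Among 20944 genes, regions of any length held the pentamer in 65.2%, the heptamer in 27.6% and the nonamer in 7.65%. The stretch of Krt6b around its lone pentamer, at positions 482 to 506 of the region, is shown with ATTTA in capitals. Binding of TTP to it was not tested.
Krt6b site: aataaagcagATTTAtaaaaagtaa

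Krt17, which pairs with KRT6 chains and is found in the outer root sheath, stood at 467, 382 and 396 CPM in mock fl/fl and 519 and 284 CPM in mock ΔEP. It read 1034, 976 and 831 CPM in treated fl/fl and 794, 1346 and 1165 CPM in treated ΔEP. In tumors it read 1428, 2115 and 1445 CPM in fl/fl and 1683, 1241 and 1572 CPM in ΔEP. All treated libraries lay above all mock libraries of both genotypes, and fl/fl tumors lay above treated skin, whereas tumor and treated ΔEP libraries overlapped. The share of all genes without overlap between groups was not counted, so overlaps of the members here and below are only descriptive.

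Krt6a, the type II chain of activated epidermis, ran from 17.9 to 4732 CPM over all libraries. It stood at 17.9, 36.8 and 26.5 CPM in mock fl/fl and 37.8 and 29.8 CPM in mock ΔEP. In treated skin it read 165, 147 and 147 CPM in fl/fl and 147, 490 and 510 CPM in ΔEP. Tumors held 4732, 1334 and 968 CPM in fl/fl and 2941, 3103 and 2927 CPM in ΔEP. The 3 stages did not overlap in either genotype, and the ΔEP tumors were alike while fl/fl tumor replicate 1 stood far above replicates 2 and 3.

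Krt6b, the near-copy of Krt6a, was the lowest of the 4 in most libraries. It stood at 4.20, 28.4 and 16.2 CPM in mock fl/fl and 7.01 and 19.0 CPM in mock ΔEP, from 26 to 168 raw counts. Treated fl/fl libraries held 14.2, 16.8 and 11.1 CPM, and treated ΔEP libraries held 45.2, 157 and 142 CPM. Tumors held 1911, 227 and 182 CPM in fl/fl and 1078, 1323 and 899 CPM in ΔEP. Mock and treated fl/fl skin overlapped, whereas every treated ΔEP library lay above every treated fl/fl and every mock library.

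Krt16, the type I chain most closely tied to hyperproliferation, stood at 17.7, 120 and 134 CPM in mock fl/fl and 34.5 and 108 CPM in mock ΔEP. Treated libraries held 70.6, 88.9 and 57.8 CPM in fl/fl and 96.7, 344 and 560 CPM in ΔEP, with no overlap between the genotypes. Tumors held 2519, 509 and 477 CPM in fl/fl and 1360, 2784 and 1913 CPM in ΔEP. Tumors did not overlap mock skin, but ΔEP treated skin overlapped fl/fl tumors.

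**Figure D1:**
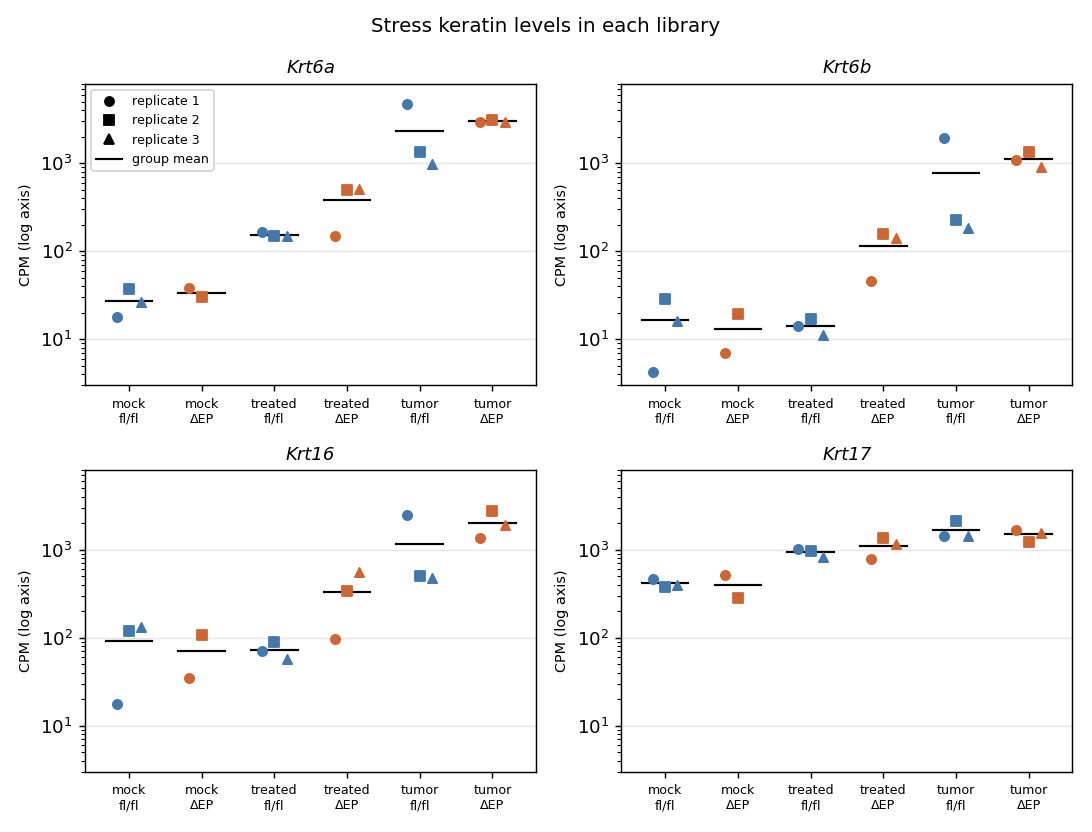
CPM on a log axis of the 4 stress keratins in each of the 17 libraries (blue fl/fl, orange ΔEP; marker shapes give the replicate number and lines the group means). Krt17 stays between 284 and 2115 CPM, whereas Krt6a runs from 17.9 to 4732 CPM and the fl/fl tumors spread widely in Krt6a, Krt6b and Krt16.

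Levels were divided by exon length to set different genes side by side, which takes every exon base as countable. That is less sure for Krt6a, Krt6b and Krt16 than for Krt17, given their shared windows. The effect on the shares and orders below was not tested. Krt17 made up 78.3% ± 13.3 (SD, n = 3) of the summed CPM per kilobase of the 4 genes in mock fl/fl and 78.1% ± 15.7 (n = 2) in mock ΔEP. In treated skin it made up 84.0% ± 0.685 in fl/fl and 65.4% ± 12.04 in ΔEP (n = 3 each). In tumors its share was 43.2% ± 22.6 in fl/fl and 24.7% ± 6.05 in ΔEP, where Krt6a took 31.2% ± 2.26, Krt16 31.8% ± 8.08 and Krt6b 12.3% ± 1.62. The order per kilobase in mock fl/fl was Krt17 (268 ± 29.5 CPM per kilobase), Krt16 (58.0 ± 40.7), Krt6a (11.2 ± 3.90) and Krt6b (7.27 ± 5.40), of which Krt6a and Krt6b overlapped within their SD. In ΔEP tumors Krt16 (1290 ± 459 CPM per kilobase) overlapped within its SD with both Krt6a (1237 ± 40.6) and Krt17 (966 ± 148), Krt17 lay below Krt6a beyond their SD, and Krt6b (492 ± 95.3) lay below all of them.

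**Figure D2:**
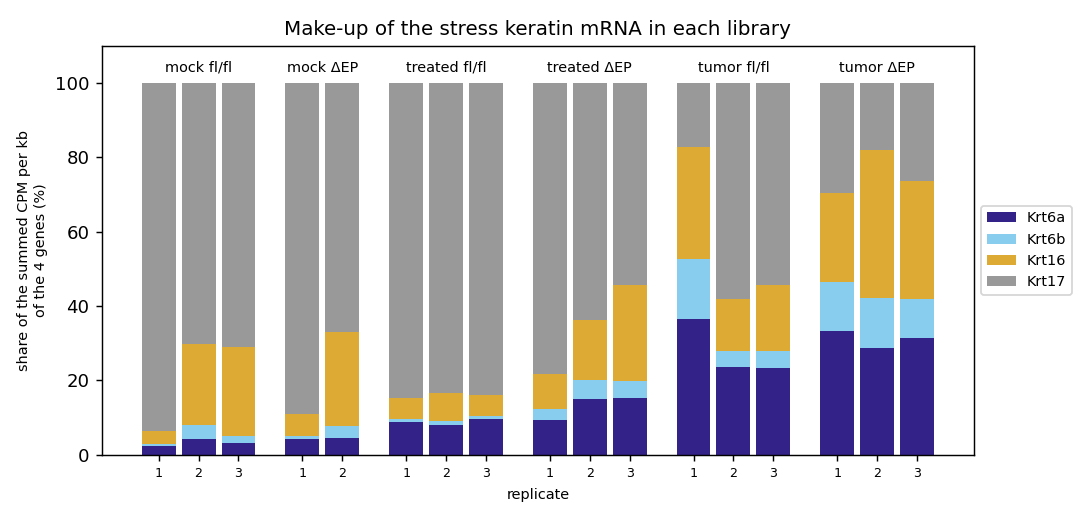
Share, in percent, of each stress keratin in the summed CPM per kilobase of exon of the 4 genes, with 1 bar per library. Krt17 fills 67.0% to 93.6% of the bar in mock skin and 17.2% to 58.2% in tumors, and fl/fl tumor replicate 1, at 17.2%, lies below the 58.2% and 54.2% of fl/fl tumor replicates 2 and 3.

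Papillomas were first compared with mock skin, to ask how far the stress keratins differed between these stages. In fl/fl cells, 3 of 4 stress keratins rose (edgeR quasi-likelihood test, adjusted p under 0.05 and fold over 2), beside 2.22% of 15394 genes tested that were called higher. Krt6a rose by 6.4 log2 (SE 0.75, adjusted p = 0.0101), Krt6b by 5.54 log2 (SE 1.18, adjusted p = 0.0469) and Krt17 by 1.97 log2 (SE 0.28, adjusted p = 0.0184). For Krt16 the log2 fold change was 3.65 (SE 0.95) with an adjusted p of 0.0686. The count of called stress keratins was 0 without mock replicate 2 or without mock replicate 3, 1 without tumor replicate 2 or without tumor replicate 3, 2 without tumor replicate 1, and 4 without mock replicate 1. Krt6b in turn read 3.67 log2 without tumor replicate 1, the library with the highest Krt6a, Krt6b and Krt16.

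In ΔEP cells all 4 rose from mock skin to tumors, beside 7.05% of 15027 genes called higher. The log2 fold changes were 6.37 for Krt6a (SE 0.35, adjusted p = 0.00349), 6.32 for Krt6b (SE 0.57, adjusted p = 0.00503), 4.73 for Krt16 (SE 0.65, adjusted p = 0.0112) and 1.81 for Krt17 (SE 0.37, adjusted p = 0.0270). Without tumor replicate 2 the count was 2, with adjusted p = 0.0619 for Krt16 and 0.0881 for Krt17. For none of the 4 was this change found to differ between genotypes, with differences (ΔEP minus fl/fl) of -0.06 (SE 0.78) for Krt6a, 0.74 (SE 1.34) for Krt6b, 1.06 (SE 1.21) for Krt16 and -0.16 (SE 0.43) for Krt17 and adjusted p of at least 0.910. Of the 17388 genes in that test, 0% were called.

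Against treated skin, the tumors of both genotypes held more Krt6a, Krt6b and Krt16, while Krt17 was not called. In fl/fl the background was 7.5% of 15362 genes called higher, and the log2 fold changes were 3.89 for Krt6a (SE 0.60, adjusted p = 0.00514), 5.75 for Krt6b (SE 0.99, adjusted p = 0.00756) and 3.97 for Krt16 (SE 0.68, adjusted p = 0.00740). In ΔEP it was 10.5% of 15289 genes, and the log2 fold changes were 2.87 for Krt6a (SE 0.44, adjusted p = 0.00207), 3.15 for Krt6b (SE 0.45, adjusted p = 0.00161) and 2.51 for Krt16 (SE 0.56, adjusted p = 0.00913). Krt17 differed by 0.78 log2 (SE 0.23, adjusted p = 0.0398) in fl/fl, a fold of 1.72 that lay under the threshold of 2, and by 0.34 log2 (SE 0.25, adjusted p = 0.316) in ΔEP. The 3 calls held without any single library in both genotypes, and DESeq2 gave no adjusted p for Krt6b in fl/fl tumors against treated or mock skin. The genotype difference of this change was -2.57 log2 for Krt6b (SE 1.03, unadjusted p = 0.0268, adjusted p = 0.315) and was not called for any of the 4, beside 0.0118% of 17017 genes called.

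These changes depend on the scaling of libraries in size but not in direction, apart from Krt17. With total counts in place of TMM factors the median of all genes moved from -0.05 to -0.42 log2 between tumor and mock fl/fl, from -0.02 to -0.50 between tumor and treated fl/fl, from -0.06 to -0.30 between tumor and mock ΔEP and from -0.03 to -0.47 between tumor and treated ΔEP. Genes called higher then went from 342 of 632 to 266 of 1234, from 1152 of 2764 to 524 of 3697, from 1059 of 2144 to 856 of 2654 and from 1608 of 3973 to 930 of 4997 in the same order. The counts of stress keratins called stayed at 3, 3, 4 and 3. Krt17 between tumor and treated ΔEP turned to -0.10 log2 (adjusted p = 0.769).

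**Figure D3:**
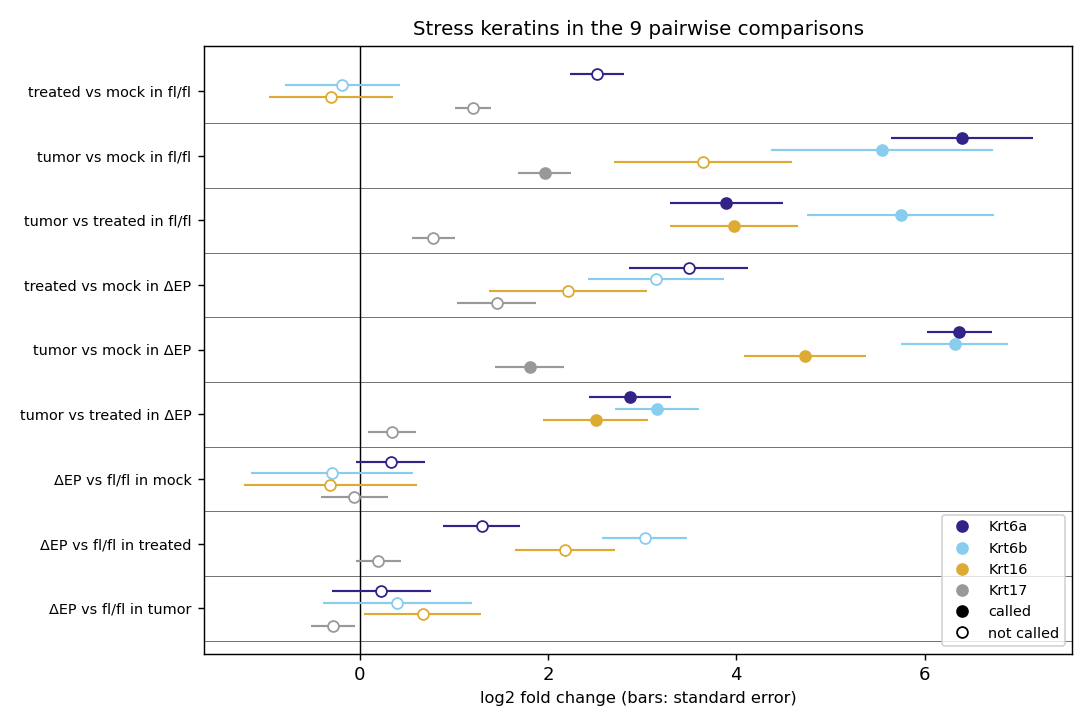
Log2 fold changes of the 4 stress keratins in the 9 pairwise comparisons, with bars for the standard error; filled points passed adjusted p under 0.05 and fold over 2. Filled points stand in the comparisons with tumors, from 1.81 log2 for Krt17 to 6.4 log2 for Krt6a, and every point of treated against mock skin and of ΔEP against fl/fl is open.

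Treated, nontumoral skin was next compared with mock skin. In fl/fl cells Krt6a differed by 2.52 log2 (SE 0.28, unadjusted p = 6.18e-05, adjusted p = 0.0844) and Krt17 by 1.2 log2 (SE 0.20, adjusted p = 0.269), and both gave groups that did not overlap. The share of all genes without overlap was not counted. Krt6b differed by -0.19 log2 (SE 0.61) and Krt16 by -0.30 log2 (SE 0.65), with adjusted p of 0.979 and 0.971. None of the 4 was called, beside 0% of 16601 genes, of which 913 had an unadjusted p under 0.05. Without mock replicate 1, Krt6a (2.32 log2, adjusted p = 0.000982) and Krt17 (1.32 log2, adjusted p = 0.00348) were called, together with 2587 of 17103 genes in all. DESeq2 and edgeR's exact test called Krt6a and Krt17 also with all libraries, among 118 and 104 genes.

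In ΔEP cells the log2 fold changes between treated and mock skin were 3.49 for Krt6a (SE 0.64), 3.15 for Krt6b (SE 0.73), 2.21 for Krt16 (SE 0.84) and 1.45 for Krt17 (SE 0.42), with adjusted p of 0.701, 0.701, 0.988 and 0.771. None was called, beside 0% of 15891 genes, of which 763 had an unadjusted p under 0.05. DESeq2 called Krt6a (adjusted p = 9.24e-06) and Krt6b (adjusted p = 0.00216) among 61 genes, and edgeR's exact test called the same pair among 67. Krt6a, Krt6b and Krt17 did not overlap between these groups, whereas Krt16 did, with ΔEP treated replicate 1 at 96.7 CPM below the 108 CPM of a mock library. With few libraries and no share over all genes, this is only descriptive.

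Zfp36 loss was compared with fl/fl within each stage. In mock skin the groups overlapped for each of the 4, the log2 fold changes lay between -0.31 and 0.33, and none was called, beside 0% of 15920 genes (253 at an unadjusted p under 0.05). In treated skin the log2 fold changes were 3.03 for Krt6b (SE 0.45, unadjusted p = 0.000124, adjusted p = 0.403), 2.18 for Krt16 (SE 0.54, adjusted p = 0.816), 1.30 for Krt6a (SE 0.41, adjusted p = 0.897) and 0.20 for Krt17 (SE 0.24, adjusted p = 0.945). None of the 4 was called, beside 0.00616% of 16232 genes, which was Zfp36 itself, while 901 genes had an unadjusted p under 0.05. Krt6b ranked 5 of 16232 by p. Krt6b and Krt16 showed no overlap between the genotypes, with Krt16 at most 88.9 CPM in fl/fl and at least 96.7 CPM in ΔEP. How many of all genes showed no overlap was not counted, so this alone says little about these genes.

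The calls of this comparison depended on 1 library, on the tool and on the low-count filter. ΔEP treated replicate 1 held 147 CPM of Krt6a, level with the fl/fl libraries, against 490 and 510 CPM in replicates 2 and 3. Without it, Krt6a (1.68 log2, adjusted p = 0.0318), Krt6b (3.41 log2, adjusted p = 0.00252) and Krt16 (2.61 log2, adjusted p = 0.0318) were among 12 genes called of 16969. Summed keratinocyte markers, which include Krt1, Krt5, Krt10 and Krt14, were 6420, 10050 and 24096 CPM in treated ΔEP replicates 1, 2 and 3. The summed stress keratins over Krt5 + Krt14 were 0.453, 0.487 and 0.239 there, against 0.162 to 0.274 in treated fl/fl. Relative to Krt5 + Krt14, replicate 1 thus lay with replicate 2, and replicate 3 lay within the fl/fl range. The part of this make-up in the gained calls was not tested. With all libraries, DESeq2 called Krt6b (adjusted p = 1.45e-08) and Krt16 (adjusted p = 0.00719) among 36 genes, and edgeR's exact test called the same pair among 44. The genotype difference of the change from mock to treated skin was 3.33 log2 for Krt6b (SE 1.02, unadjusted p = 0.00847) and 2.52 log2 for Krt16 (SE 1.16, unadjusted p = 0.0549), both with an adjusted p of 0.99995, and 0% of 17694 genes were called.

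In tumors the genotypes overlapped for each of the 4 keratins. The log2 fold changes of ΔEP against fl/fl were 0.23 for Krt6a (SE 0.52), 0.40 for Krt6b (SE 0.79), 0.67 for Krt16 (SE 0.62) and -0.29 for Krt17 (SE 0.24), with adjusted p between 0.611 and 0.874. None was called, beside 0.0284% of 14067 genes (1975 at an unadjusted p under 0.05). The calls turned on fl/fl tumor replicate 1: without it, Krt6a (1.27 log2, adjusted p = 0.00152), Krt6b (2.31 log2, adjusted p = 0.000153) and Krt16 (1.92 log2, adjusted p = 0.00121) were called, among 2613 of 15463 genes. The fl/fl tumors then left, replicates 2 and 3, held 4248 and 7572 CPM of summed sebocyte markers, against 320 to 454 CPM in ΔEP tumors. Their summed keratinocyte markers, which include Krt5 and Krt14, stood at 12810 and 14218 CPM, against 29167 to 31026 CPM in ΔEP tumors. Not all markers differed when the means of all fl/fl and all ΔEP tumors were compared. Cdh1 (748 and 751 CPM), Perp (1946 and 1980), Trp63 (562 and 600), Epcam (328 and 322) and Krt10 (527 and 503) were alike. Krt5 (5835 and 9647), Krt14 (7890 and 11262), Itga6 (1180 and 2171), Sfn (1159 and 1610) and Krt1 (927 and 1455) were higher in ΔEP. The part of these markers in the gained calls was not tested. Averaged over the 3 stages, the log2 fold changes of ΔEP against fl/fl were 0.67 for Krt6a (SE 0.31, adjusted p = 0.709), 1.08 for Krt6b (SE 0.49, adjusted p = 0.691), 0.88 for Krt16 (SE 0.46, adjusted p = 0.740) and 0.01 for Krt17 (SE 0.16), and none was called, beside 0.011% of 18252 genes. Without fl/fl tumor replicate 1, Krt6b was called in this average (1.71 log2, adjusted p = 0.0430), among 113 genes.

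Ratios between keratins of 1 library, with an offset of 0.5 CPM, were tested by exact permutation of libraries within genotype or stage, two-sided, with Benjamini-Hochberg adjustment over 12 tests. The log2 ratio of type II to type I stress keratins, (Krt6a + Krt6b)/(Krt16 + Krt17), was -0.01 ± 0.61 (SD) in 6 tumors and -2.76 ± 0.92 in the other 11 libraries. The difference within genotype was 2.71 log2 (p = 0.000213 by exact permutation, the smallest these permutations can give, adjusted p = 0.00255). Between treated and mock skin the ratio differed by 1.35 log2 (exact permutation p = 0.00500, the smallest possible, adjusted p = 0.0200), with -2.13 ± 0.60 in 6 treated and -3.52 ± 0.60 in 5 mock libraries. This adjusted p was 0.05 without mock ΔEP replicate 2 and between 0.0653 and 0.0800 without any one of the 6 treated libraries. Between genotypes within stage it differed by 0.59 log2 (exact permutation p = 0.0473, adjusted p = 0.0810), and by 0.75 log2 without fl/fl tumor replicate 1 (adjusted p = 0.0268 by exact permutation).

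Within the type I pair, Krt16/Krt17 was higher in tumors by 2.44 log2 (exact permutation p = 0.00191, adjusted p = 0.0115) and differed by -0.23 log2 between treated and mock skin (exact permutation p = 0.785). As a linear ratio, fl/fl tumor replicates 2 and 3 read 0.241 and 0.331, within the 0.0389 to 0.340 of mock fl/fl, and replicate 1 read 1.76. In ΔEP, tumors ran from 0.808 to 2.24 and mock skin from 0.0675 to 0.383. The summed stress keratins over Krt5 + Krt14 differed by 1.24 log2 between tumors and the other stages (exact permutation p = 0.0330) and by 1.61 log2 between treated and mock skin (exact permutation p = 0.0350), both with an adjusted p of 0.0700.

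Within the Krt6 pair, Krt6a/Krt6b in CPM was 10.9 ± 2.16 (SD, range 8.50 to 12.8) in treated fl/fl and 3.30 ± 0.244 (range 3.10 to 3.57) in treated ΔEP, with no overlap. This ratio came with a Krt6b level in treated fl/fl that overlapped mock skin while Krt6a did not, and treated ΔEP replicate 1 lay with replicates 2 and 3 in this ratio although its levels were lower. That pair of groups was not tested alone, since 3 against 3 libraries cannot go below an exact p of 0.10. Over all stages the genotypes differed by -0.62 log2 in this ratio (exact permutation p = 0.132, adjusted p = 0.179), and tumors differed from the other stages by -0.15 log2 (exact permutation p = 0.754). Treated skin differed from mock skin by 1.32 log2 (exact permutation p = 0.0350, adjusted p = 0.0700).

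**Figure D4:**
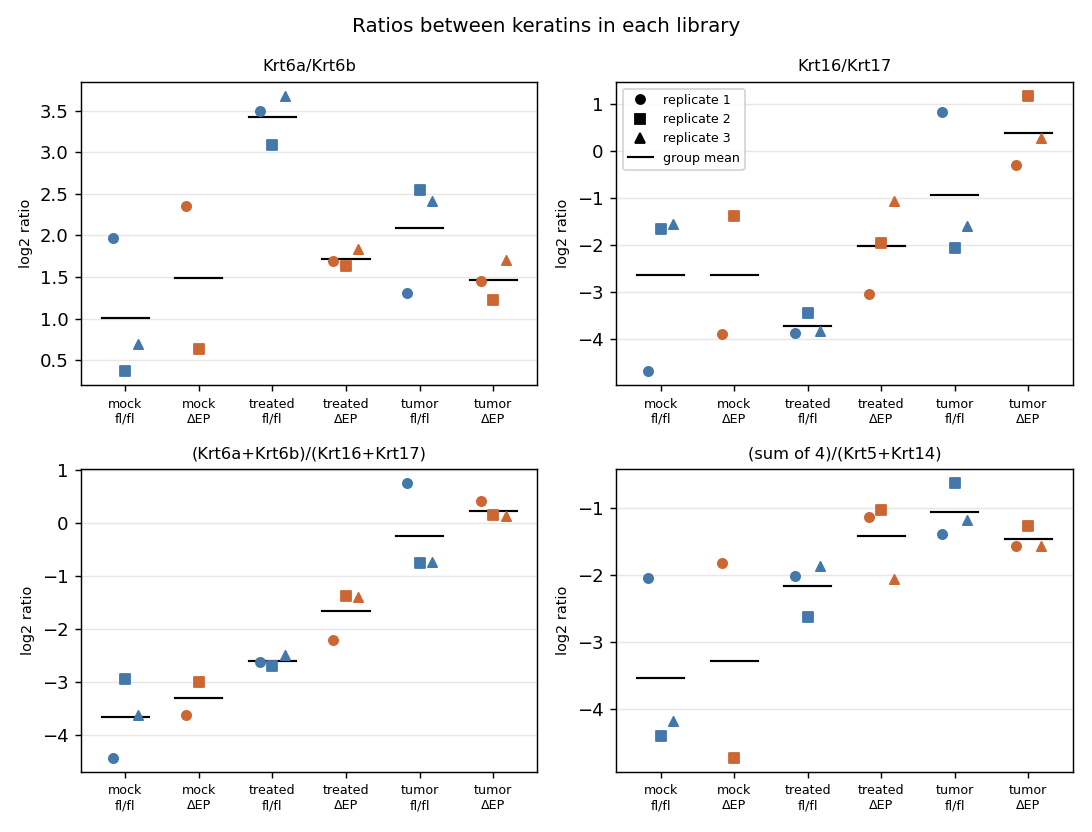
Log2 ratios between keratin levels in CPM in each library (blue fl/fl, orange ΔEP; shapes give the replicate number, lines the group means). Tumors lie highest in (Krt6a+Krt6b)/(Krt16+Krt17), and treated fl/fl skin stands apart from every other group in Krt6a/Krt6b, from 3.09 to 3.67 log2.

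Libraries also differed in hair follicle and stromal genes. Mock replicate 1 of both genotypes held 1724 and 1668 CPM of summed hair follicle root sheath keratins, against 9.16 to 15.4 CPM in the other mock libraries, 356 to 1179 CPM in treated skin and 11.8 to 47.5 CPM in tumors. The same libraries held the least Krt6b and Krt16 of mock skin and 602 and 669 CPM of Krt14, against 4215 to 4961 CPM in the other mock libraries. The summed 10 keratinocyte markers (Epcam and Cdh1 among them, detected in every library) ran from 5245 CPM in mock fl/fl replicate 1 to 36276 CPM in fl/fl tumor replicate 1. This sum also holds the keratins Krt1, Krt5, Krt10 and Krt14. The summed 7 fibroblast markers ran from 507 to 1673 CPM in mock, 375 to 953 CPM in treated and 30.3 to 386 CPM in tumor libraries. Leukocyte markers summed to at most 37.4 CPM in mock skin, 179 CPM in treated ΔEP replicate 3 and 96.0 CPM in tumors. Cd74 made up most of the higher sums, with up to 172 CPM in treated ΔEP and 83.5 CPM in ΔEP tumors. The pan-leukocyte gene Ptprc stood at 1.503 CPM or less in every library. Endothelial markers summed to 8.60 to 40.2 CPM throughout. The part of these cells in the stress keratin values was not tested, and fewer cells of a type cannot be told apart from less RNA per cell in bulk libraries.

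**Figure D5:**
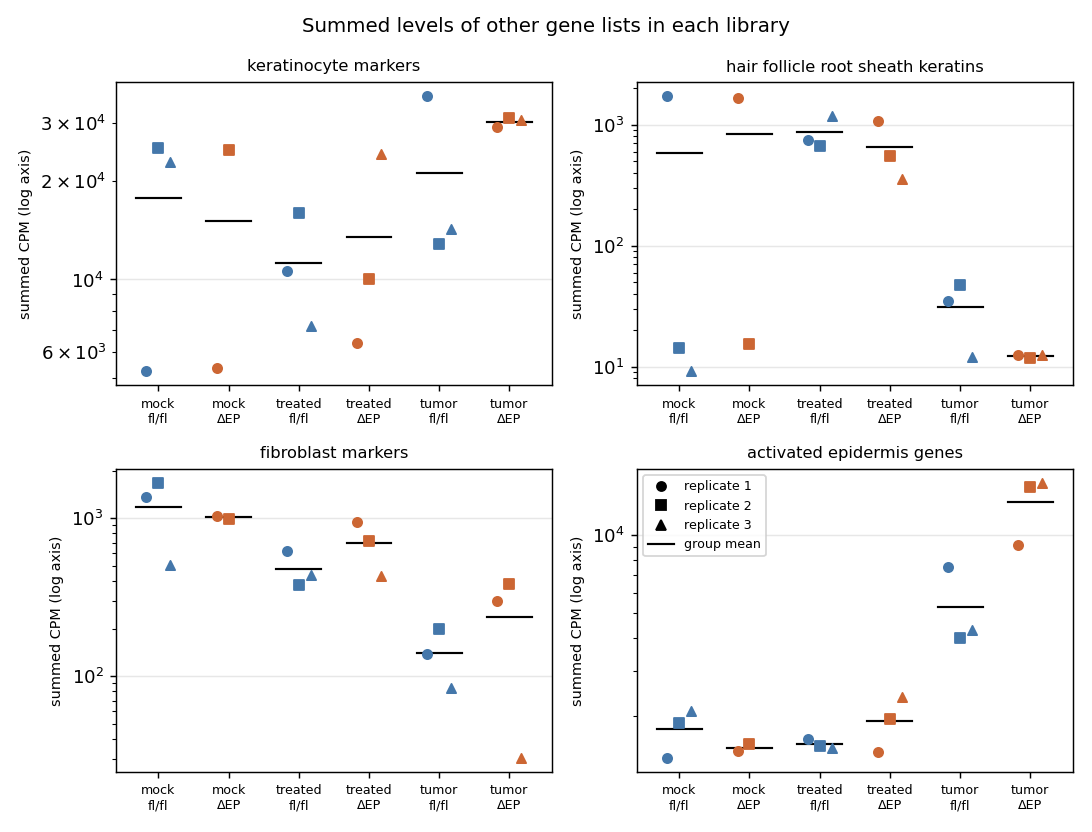
Summed CPM on a log axis of 4 other gene lists in each library (blue fl/fl, orange ΔEP; shapes give the replicate number, lines the group means). Among mock libraries, replicate 1 of each genotype stands apart in root sheath keratins (1724 and 1668 CPM) and keratinocyte markers (5245 and 5353 CPM). Treated fl/fl replicate 3 and treated ΔEP replicate 1 hold 1179 and 1074 CPM of root sheath keratins and 7224 and 6420 CPM of keratinocyte markers. ΔEP tumors hold 9135 to 15949 CPM of activated epidermis genes.

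Other genes of activated epidermis showed calls in the same comparisons. Of the list that holds small proline-rich proteins, S100 alarmins and wound-edge genes, 10 of 20 tested rose and 0 fell from mock skin to tumors in fl/fl, with a median of 3.09 log2 beside -0.05 over all genes. In ΔEP, 17 of 22 rose and 0 fell, with a median of 4.35 log2. Of all genes, 2.22% were called higher and 1.88% lower in fl/fl, and 7.05% and 7.22% in ΔEP. The calls with the smallest p in fl/fl were the cytokine gene Il24 (0 to 0.587 CPM in mock, 111 to 154 CPM in tumors), the cornified envelope gene Sprr1a (2.91 log2), the fibronectin receptor subunit gene Itga5 (3.26 log2) and the alarmin gene S100a8 (6.86 log2). In ΔEP they were Sprr1b (0.359 to 0.540 CPM in mock, 138 to 187 CPM in tumors), S100a8, S100a9 and Sprr2d, of which the last belongs to a family of near-identical copies. From treated skin to tumors, 15 of 20 rose in fl/fl and 18 of 22 in ΔEP, and 0 fell. The shares of all genes called higher there were 7.5% in fl/fl and 10.5% in ΔEP. In treated against mock skin and between genotypes 0 were called, with the largest differences in treated skin for S100a9 (6.93 log2, adjusted p = 0.403) and S100a8 (6.32 log2, adjusted p = 0.385) in ΔEP against fl/fl.

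Among known inducers and regulators of stress keratins, the smallest p belonged to EGF receptor ligands. From mock skin to tumors 5 of 27 rose and 0 fell in fl/fl, beside 2.22% of all genes for rises and 1.88% for falls. In ΔEP 9 of 27 rose and 3 fell, beside 7.05% of all genes called higher and 7.22% lower. The ligand genes Ereg and Areg had the smallest p in both: Ereg went from 1.36 ± 0.196 to 267 ± 53.8 CPM in fl/fl (adjusted p = 0.000490) and from 2.74 ± 0.320 to 855 ± 451 CPM in ΔEP (adjusted p = 0.00563). Areg went from 11.3 ± 2.25 to 202 ± 97.0 CPM in fl/fl (adjusted p = 0.00671) and from 16.9 ± 0.0785 to 844 ± 390 CPM in ΔEP (adjusted p = 0.00631). The AP-1 subunit gene Fosl1 (1.92 log2) and the ligand gene Hbegf (2.19 log2) also rose in fl/fl, while in ΔEP the ligand gene Epgn rose by 3.03 log2 and the Hedgehog effector gene Gli1 fell by 5.26 log2. From treated skin to tumors 10 rose and 2 fell in fl/fl, beside 7.5% of all genes called higher and 10.5% lower. In ΔEP 11 rose and 2 fell, beside 10.5% higher and 15.5% lower, and Nfe2l2, which encodes the antioxidant regulator NRF2, rose by 1.56 log2. In treated against mock skin and between genotypes 0 were called.

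Of genes for keratin anchors and binding partners, 0 of 17 rose and 1 fell from mock skin to tumors in fl/fl (2.22% and 1.88% of all genes), the plakin gene Ppl (-2.72 log2). In ΔEP 3 of 16 rose and 0 fell, beside 7.05% and 7.22% of all genes. These were the desmosomal cadherin genes Dsc2 (3.76 log2) and Dsg3 (2.12 log2) and the 14-3-3 sigma gene Sfn (1.37 log2). Among basal and suprabasal keratins, of 9 tested, 0 rose and 2 fell in fl/fl, Krt77 (-8.33 log2) and Krt15 (-3.14 log2), and 0 rose and 4 fell in ΔEP, among them Krt77 (-8.87 log2) and Krt79 (-3.06 log2). Krt5 and Krt14 themselves were not called against mock skin, with Krt14 at 1.21 log2 (adjusted p = 0.389) in fl/fl and 2.11 log2 (adjusted p = 0.0909) in ΔEP. In ΔEP tumors against treated skin Krt5 rose by 1.71 log2 (adjusted p = 0.0105) and Krt14 by 1.86 log2 (adjusted p = 0.0210). Krt75, a companion layer keratin, was not called between tumors and mock skin and fell from treated skin to tumors by 3.98 log2 in fl/fl and by 3.51 log2 in ΔEP.

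Genes with library profiles most like the mean of the 4 keratins were sought among 18252 genes as the root mean square difference of centered log2 CPM over 17 libraries. The nearest was Gm11597 (0.50 log2), which shares exon windows with Krt16 and was also the nearest to Krt16 itself (0.30). Gm25465 came next (0.64), and Crabp2, a retinoic acid-binding protein gene, was also at 0.64, with 6.01 ± 1.87 CPM in mock fl/fl and 89.7 ± 10.9 CPM in fl/fl tumors. Akr1b8, an aldo-keto reductase gene, was at 0.64, the lactate transporter gene Slc16a1 at 0.71 and the epidermal protease gene Klk8 at 0.72. Gm12606 (0.65), Teddm3 (0.70), Sprr2a3 (0.72) and Aqp9 (0.75) completed the nearest 10. Each member also had its own neighbors: the glutathione peroxidase gene Gpx2 (0.80), 2610528A11Rik (0.80) and Chst2 (0.81) for Krt6a, Tmigd1 (0.72), Sprr1b (0.76) and Tmprss11b (0.86) for Krt6b, Il1f9 (0.62) and Akr1b8 (0.64) for Krt16, and Hspa4l (0.35), Cdc42ep3 (0.37) and Vmp1 (0.38) for Krt17. Among the 4, Krt6b and Krt16 were nearest to each other (0.75), Krt6a lay at 0.93 from Krt6b and 1.11 from Krt16, and Krt17 lay at 1.69 to 2.21 from the others.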

How the data were processed

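The authors deposited raw counts per gene, made from Ovation SoLo RNA-Seq libraries sequenced on an Illumina HiSeq. The submitters' processing notes name Trimmomatic 0.36, STAR 2.5.3, HTSeq 0.9.1, DESeq2 and mm10 without roles, while the table is titled after featureCounts. Strand use, read length, treatment of multiply matching reads and removal of duplicates are not stated. Precision from counts covers counting error only.

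Of 52636 gene IDs, 52489 were found in GENCODE M21 (GRCm38), which gave positions, exon lengths, coding sequences and untranslated regions. Analyses used R 4.3.3, edgeR 4.0.16, limma 3.58.1, DESeq2 1.42.0 and Python. Each pairwise comparison was fitted on its own groups with filterByExpr, TMM scaling, edgeR's quasi-likelihood F test and Benjamini-Hochberg adjustment over all genes tested. Genes were called at adjusted p under 0.05 and fold over 2. Genotype differences of stage changes were contrasts over 4 groups, and the average over stages used all 6. CPM used TMM factors over the 17 libraries. Ratios carried an offset of 0.5 CPM. Procedures were tested on simulated data with large planted changes and, for the fits, the same dispersion for all genes. The wide spread within some groups here was not simulated.

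Of other lists, counts were given, naming up to 4 calls with the smallest p per main comparison, or up to 2 largest differences where none was called. Not every such gene is printed. Members and lists were chosen with earlier results of these data known. All 165 listed genes but Eppk1 were found in the table. Alternatives were DESeq2, edgeR's exact test, a single fit, scaling by RLE or total counts, all genes kept, only genes with a mean count of 10 or more kept, blocking on the replicate number, a term for mock replicate 1, the identical columns as 2 libraries, each library left out, and for ratios no offset, an offset of 5 CPM and values per kilobase.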

Additional observations from a re-analysis of the deposited data

How the results depend on the processing

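Most calls against tumors held under the alternatives that kept all libraries. With single libraries left out, calls of tumors against treated skin held. The number called in tumors against mock skin changed with single libraries in both genotypes. Calls between treated and mock skin or between genotypes depended on the tool and on single libraries. The causes were not tested. The number of stress keratins called in ΔEP against fl/fl treated skin was 2 with DESeq2, 2 with edgeR's exact test and 3 with no low-count filter. In treated against mock fl/fl it was 2, 2 and 1, and in treated against mock ΔEP 2, 2 and 3, in the same order. The genotype difference of tumor against treated skin had 2 calls with no low-count filter. With 1 library left out, the number ran from 0 to 3 for genotype in treated skin, 0 to 3 for genotype in tumors, 0 to 2 for treated against mock fl/fl, 0 to 4 for tumor against mock fl/fl, 2 to 4 for tumor against mock ΔEP and 0 to 1 for genotype averaged over stages.

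With the replicate number as a block, 1 stress keratin was called in tumor against mock fl/fl and 1 in treated against mock ΔEP. In no comparison with 3 pairs did every pair of same-numbered libraries correlate above 0.1 in their deviations, or every library correlate best with its own number. With only 2 pairs, the correlations were 0.78 and 0.57 between the mock genotypes and 0.57 and 0.14 between treated and mock ΔEP. The labels name no shared litter, batch or day, so pairing was not used in the tests reported. The block also turned Krt16 in the mock genotype comparison to 0.35 log2, Krt6b and Krt16 in treated against mock fl/fl to 0.11 and 0.067, Krt6a in the genotype difference of tumor against mock to 0.41 and Krt17 averaged over stages to -0.0026.

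Reversals otherwise concerned values that were not called. A term for mock replicate 1 gave 0.14 for Krt6b and 0.25 for Krt16 in the mock genotype comparison. Total-count scaling gave -0.10 for Krt17 in tumor against treated ΔEP. Krt6a in the genotype difference of tumor against mock was 0.025 in a single fit, 0.19 with total-count scaling, 0.16 with no filter and 0.018 with the identical columns as 2 libraries, and Krt17 there was 0.00040 with no filter. Krt17 averaged over stages was -0.032 with DESeq2, -0.032 with RLE scaling, -0.11 with total counts, -0.0031 with no filter, -0.045 with a mean count of at least 10, -0.041 with the term and -0.046 with the identical columns as 2 libraries. The Krt6a/Krt6b difference of tumors was 0.076 with an offset of 5 CPM.

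With 1 library left out, log2 fold changes ran from -1.22 to 0.35 for Krt6b, -1.40 to 0.29 for Krt16 and -0.55 to 0.28 for Krt17 in the mock genotype comparison, from -0.14 to 1.27 for Krt6a and -0.069 to 2.31 for Krt6b in tumors, and from -0.63 to 0.48 for Krt6b and -0.79 to 0.13 for Krt16 in treated against mock fl/fl. The genotype difference ran from -0.13 to 0.76 for Krt17 in treated against mock, -0.38 to 0.99 for Krt6a and -0.48 to 0.39 for Krt17 in tumor against mock, and -1.38 to 0.010 for Krt6a in tumor against treated. Krt17 averaged over stages ran from -0.16 to 0.13. Of the ratios, Krt6a/Krt6b ran from -0.33 to 0.048 for tumors and 0.89 to 1.75 for treated against mock, Krt16/Krt17 from -0.86 to 0.40 for treated against mock, (Krt6a+Krt6b)/(Krt16+Krt17) from 1.16 to 1.53 for treated against mock and 0.46 to 0.75 for genotype, and the sum over Krt5 + Krt14 from -0.28 to 0.69 for genotype. Depth limits mock Krt6b most, with 26 to 168 counts.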

Other observations

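Simple and mucosal keratins, which resting epidermis makes little of, stood at low levels. From treated skin to tumors 3 of 4 tested rose in ΔEP, namely Krt18 (3.77 log2), Krt8 (1.77 log2) and Krt13 (3.63 log2), and 1 of 3 in fl/fl, Krt18 (2.87 log2). The shares of all genes called higher were 10.5% in ΔEP and 7.5% in fl/fl, and 7.05% and 2.22% against mock skin. Against mock skin Krt18 rose in ΔEP tumors (adjusted p = 0.0270, edgeR quasi-likelihood test), from 1.08 CPM to 24.2 ± 8.85 CPM, and 0 of 3 were called in fl/fl. Root sheath keratins fell in 7 of 7 tested from treated skin to tumors in both genotypes, with medians of -4.92 log2 in fl/fl and -7.57 log2 in ΔEP. Of all genes, 10.5% in fl/fl and 15.5% in ΔEP were called lower. Against mock skin 0 of 5 were called in fl/fl and 0 of 1 in ΔEP.

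Sebocyte markers summed to 4248 and 7572 CPM in fl/fl tumor replicates 2 and 3 and to 320 to 796 CPM in the other 15 libraries. From treated skin to tumors 3 of 6 rose in fl/fl, while 1 rose and 1 fell of 4 in ΔEP, and 0 were called against mock skin. Of all genes, 7.5% in fl/fl and 10.5% in ΔEP were called higher from treated skin to tumors. Melanocyte markers summed to 376 CPM in treated ΔEP replicate 1, the library with the lowest Krt6a, Krt6b and Krt16 of its group, and from treated skin to tumors 2 of 5 fell in fl/fl and 4 of 5 in ΔEP. Against mock skin 2 of 5 fell in fl/fl and 0 in ΔEP. Fibroblast markers fell in 4 of 6 from mock skin to tumors in fl/fl and 1 of 6 in ΔEP, and in 2 and 1 of 6 from treated skin. The shares of all genes called lower were 1.88% in fl/fl and 7.22% in ΔEP against mock skin, and 10.5% in fl/fl and 15.5% in ΔEP against treated skin, so that 1 of 6 in ΔEP says little about the list.

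Keratinocyte markers rose in 3 of 10 in fl/fl and 5 of 10 in ΔEP from treated skin to tumors, where 1 fell in ΔEP, and in 0 and 3 of 10 from mock skin. Of hair follicle stem and outer root sheath markers, 1 rose and 1 fell of 9 from mock skin to tumors in fl/fl and 2 rose and 3 fell in ΔEP, and from treated skin 1 rose and 4 fell in fl/fl and 1 rose and 2 fell in ΔEP. The shares of all genes called higher were 2.22% and 7.05% against mock skin and 7.5% and 10.5% against treated skin, in fl/fl and ΔEP, beside which a single rise among 9 says little. The shares called lower were 1.88% and 7.22% against mock skin and 10.5% and 15.5% against treated skin, in the same order. Beside these, a single fall, or 2 falls among 17 from treated skin, says little about a list. Leukocyte markers gave 1 call, Cd74 (2.58 log2) in ΔEP tumors against mock skin, and endothelial markers 1, Pecam1 (1.21 log2) in ΔEP tumors against treated skin. None of the 10 proliferation genes tested was called by edgeR's quasi-likelihood test between tumors and either other stage, with medians between -0.30 and 0.24 log2. Mock skin was split in these genes: they summed to 2006 and 2020 CPM in mock replicate 1 of fl/fl and ΔEP. The other mock libraries held 520 to 947 CPM and tumors 687 to 2078 CPM, so the comparison with mock skin says little. From treated skin to tumors, 2 of 8 basal and suprabasal keratins fell in fl/fl, while 2 rose and 4 fell in ΔEP. Anchors and binding partners gave 3 rises and 2 falls of 17 in fl/fl and 5 rises and 1 fall in ΔEP.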
